A study of Homo sapiens with 8 samples.

Results

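The genes of the mitochondrial ribosome were taken as all probe sets paired with a single gene symbol that begins with MRPL or MRPS. They numbered 73 of the 17845 genes tested, 47 named MRPL (after the large subunit) and 26 named MRPS (after the small subunit), each with 1 probe set. Of these, 72 code for proteins and MRPS31P5 is a transcribed pseudogene of MRPS31, whose probes may take up signal of the parent gene. The mitochondrial ribosome translates the few messenger RNAs that mitochondrial DNA encodes, which give core subunits of the respiratory chain and the ATP synthase. Its ribosomal RNAs come from mitochondrial DNA, whereas all of its proteins are encoded in the nucleus, made in the cytosol, imported and assembled with those RNAs. Many of these proteins descend from bacterial ribosomal proteins and the rest were added during the evolution of mitochondria.

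Transcripts were measured on Affymetrix Human Gene 1.0 ST arrays in HepG2, a line grown from 1 human liver tumour. Cultures received JQ1 at 500 nM on 2 arrays, RVX-208 at 5000 nM on 3 arrays, or vehicle alone on 3 arrays, each for 4 h, with DMSO at 0.1% in all groups. Both compounds displace BET proteins, bromodomain readers of acetylated histones that help genes to be transcribed, and RVX-208 prefers the second bromodomain. The doses differ, so a difference between the compounds is a difference between these doses, and a further JQ1 sample named in the design is not analysed here. No label states that the arrays of a group came from cultures grown apart, so each p-value reflects only how far these arrays differ, which may be technical, and the number of arrays limits the precision.

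Signals are log2 values after RMA, and array medians lay between 7.26 and 7.31. The 10 hepatocyte markers tested had a median signal of 12.82 and the 6 blood cell markers one of 5.53. The 8 fibroblast markers read between 3.31 and 7.44, and PDGFRB, a growth factor receptor, was the 1 called, at −0.30 with JQ1 and −0.24 with RVX-208. No hepatocyte or blood marker was called, and a part of these markers in the results was not tested. HEXIM1, a gene whose rise is used as a sign of BET inhibition, changed by 1.49 ± 0.06 with JQ1 and by 0.48 ± 0.05 with RVX-208 on the log2 scale (limma, adjusted p = 9.942e-06 and 0.00677). The mitochondrial ribosome genes were bright, with a median signal of 9.64 against 7.33 for all genes, and 68 of the 73 lay at or above that overall median. All genes and the 8923 genes at or above the overall median are both given as a background for this reason.

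JQ1 against DMSO asks which of these transcripts respond to the broad BET inhibitor. With JQ1, 14 of the 73 genes were lower and 1 was higher at an adjusted p under 0.05 (limma, Benjamini-Hochberg over all genes). That made 20.5% of the members called, against 22.8% of all genes and 34.2% of the brighter genes. The share called was thus below both backgrounds. The split by direction was 19.2% lower and 1.37% higher for the members, against 12.0% lower and 10.7% higher for all genes and 16.9% lower and 17.3% higher for the brighter genes. At an unadjusted p under 0.05 the number was 27, beside 6329 of the 17845 genes and 4325 of the 8923 brighter genes. The members' median log2 change was −0.059, against −0.040 over all genes and −0.000 over the brighter genes. With arrays centred on housekeeping genes the members' median was −0.226 and that of all genes −0.208, a shift that moves every gene alike, and 45 members were then lower (61.6%, against 42.2% of all genes and 43.1% of the brighter genes). None of the 73 changed by 1.5-fold or more. In RNA from a whole culture, fewer cells with a transcript and less of it per cell cannot be told apart.

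Without regard to the test, the JQ1 arrays lay wholly below the DMSO arrays for 33 members (45.2%, against 29.2% of all genes and 31.9% of the brighter ones). They lay wholly above DMSO for 9 members (12.3%, against 21.3% and 32.7%). For 29 members, including each of the 14 called lower, both JQ1 arrays lay below all 6 other arrays. That is 39.7% of the members, against 15.9% of all genes and 24.6% of the brighter genes. No member had both JQ1 arrays above all 6 others, a count for which the share of all genes is not given here.

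**Figure D1:**
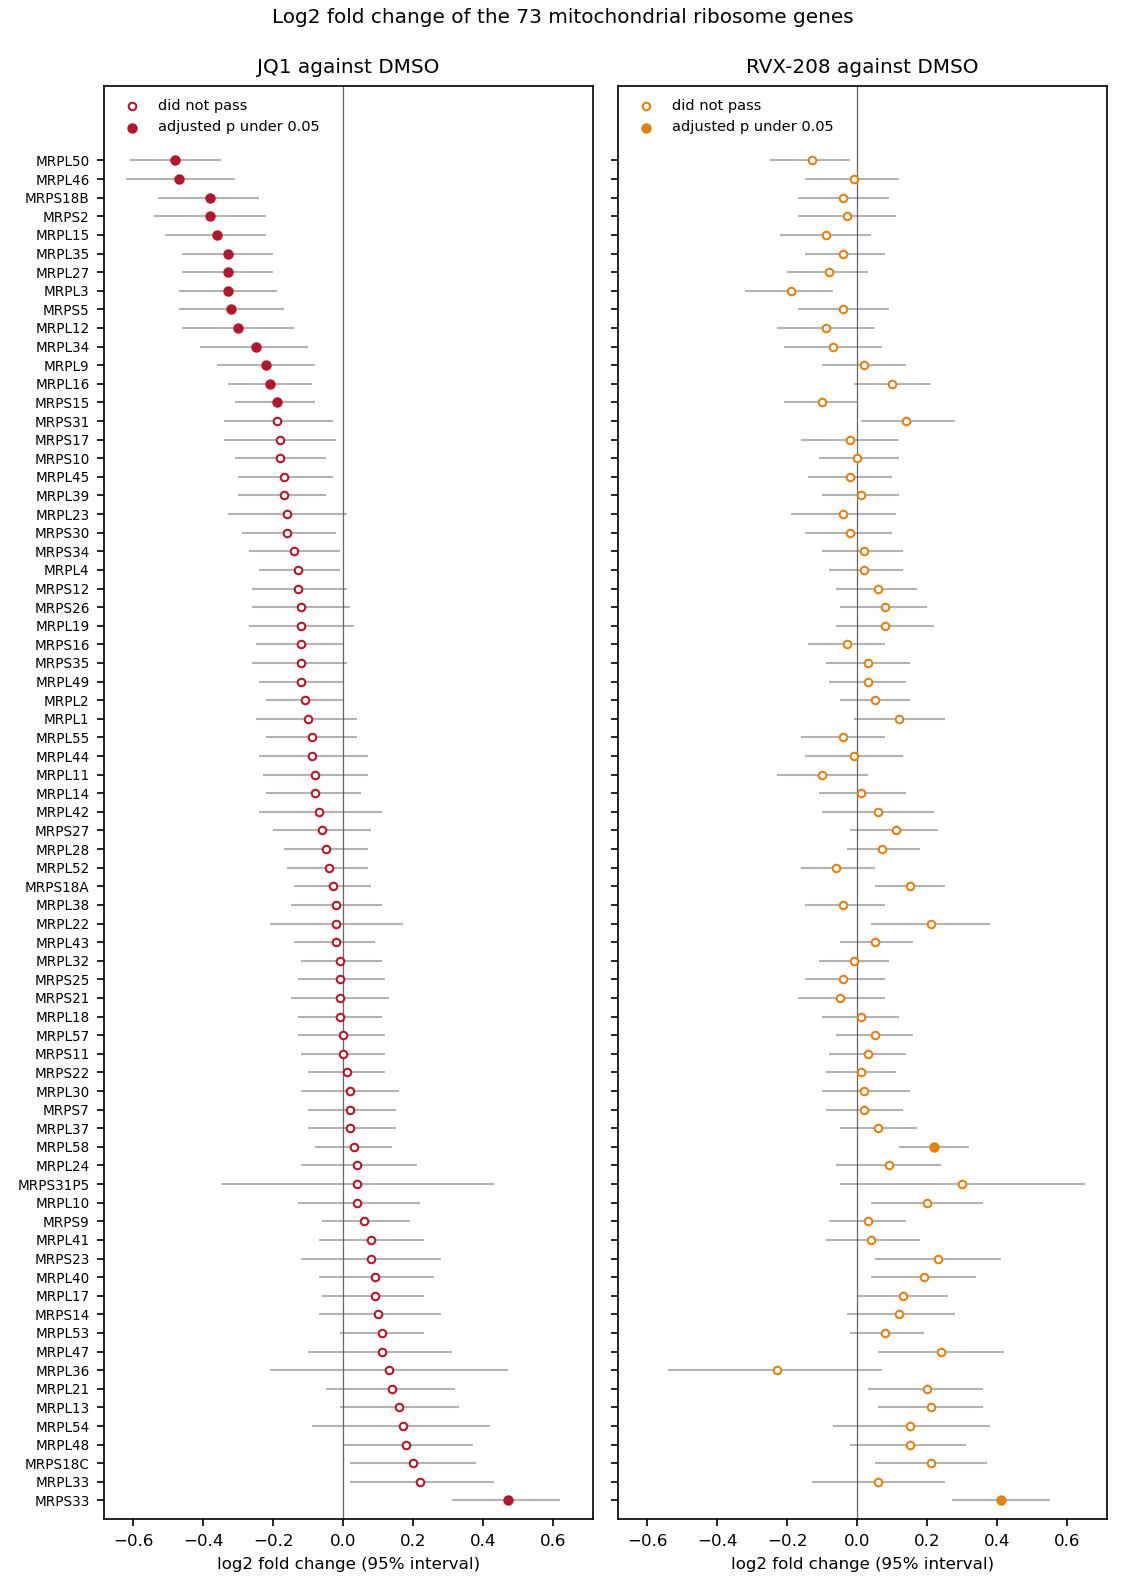
Log2 fold change of each of the 73 genes with its 95% confidence interval, JQ1 against DMSO on the left and RVX-208 against DMSO on the right, in the same gene order. Filled points passed an adjusted p under 0.05. Values with JQ1 run from −0.48 for MRPL50 to 0.47 for MRPS33, and the filled points on the left lie below 0 apart from MRPS33. Both panels share the DMSO arrays, and centring on housekeeping genes moves the members' median to −0.226 with JQ1 and turns that with RVX-208 to −0.079. The medians of all genes are then −0.208 and −0.129.

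The largest falls were in MRPL50 and MRPL46, mitochondria-specific proteins of the large subunit, the second of which sits in the central protuberance. MRPL50 (probe set 8162880, chromosome 9) read 11.12 and 11.08 with JQ1, 11.44, 11.44 and 11.47 with RVX-208, and 11.65, 11.53 and 11.57 with DMSO. The JQ1 arrays were lowest and no groups overlapped. The JQ1 change was −0.48 ± 0.06 (SE, adjusted p = 6.071e-04), a level 1.39-fold lower. MRPL46 (7991209, chromosome 15) read 9.86 and 9.95 with JQ1, 10.29, 10.38 and 10.39 with RVX-208, and 10.44, 10.38 and 10.29 with DMSO. Only the JQ1 arrays stood apart, as RVX-208 and DMSO spanned nearly the same range. MRPL46 changed by −0.47 ± 0.07 with JQ1 (adjusted p = 0.00157).

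Both genes, and MRPS18B below, carry a match to the letters bound by the factor YY1 just after their start sites. The windows of these 3 genes and of MRPS33, the gene that rose, are printed as examples. MRPS2, MRPL3, MRPL16, MRPL27 and MRPL34 were also lower and hold one of the searched motifs, and their windows are not printed. They run from 250 bases before to 50 bases after the annotated start (RefSeq, GRCh38.p14), 5′ to 3′ on the gene's strand. Capitals mark AAGATGG in the first 3, and in MRPS33 first the letters of the factor NRF1 (GCGCA, a base of any kind, GCGC) and then CTTCCGG, the other strand of the ETS letters CCGGAAG. The windows are chr9:101398569-101398868 on the minus strand for MRPL50, chr15:88467339-88467638 on the minus strand for MRPL46, chr6:30617590-30617889 on the plus strand for MRPS18B and chr7:141014903-141015202 on the minus strand for MRPS33, which has 2 windows.
MRPL50: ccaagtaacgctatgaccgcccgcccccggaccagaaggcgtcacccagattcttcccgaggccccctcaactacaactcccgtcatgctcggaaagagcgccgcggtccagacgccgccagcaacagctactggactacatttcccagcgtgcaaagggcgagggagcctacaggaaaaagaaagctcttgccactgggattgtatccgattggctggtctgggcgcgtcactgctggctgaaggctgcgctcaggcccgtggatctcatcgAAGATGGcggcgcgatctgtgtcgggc
MRPL46: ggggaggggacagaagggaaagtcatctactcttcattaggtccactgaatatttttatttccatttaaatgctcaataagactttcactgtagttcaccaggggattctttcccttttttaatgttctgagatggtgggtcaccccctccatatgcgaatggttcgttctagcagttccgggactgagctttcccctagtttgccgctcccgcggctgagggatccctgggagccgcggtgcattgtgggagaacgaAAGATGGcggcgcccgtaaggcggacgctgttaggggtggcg
MRPS18B: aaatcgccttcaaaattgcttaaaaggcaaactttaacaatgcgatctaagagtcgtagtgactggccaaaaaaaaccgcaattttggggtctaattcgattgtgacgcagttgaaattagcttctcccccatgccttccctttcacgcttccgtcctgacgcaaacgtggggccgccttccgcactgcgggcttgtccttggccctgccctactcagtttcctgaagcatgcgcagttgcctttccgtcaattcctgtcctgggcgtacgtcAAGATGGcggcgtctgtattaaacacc
MRPS33: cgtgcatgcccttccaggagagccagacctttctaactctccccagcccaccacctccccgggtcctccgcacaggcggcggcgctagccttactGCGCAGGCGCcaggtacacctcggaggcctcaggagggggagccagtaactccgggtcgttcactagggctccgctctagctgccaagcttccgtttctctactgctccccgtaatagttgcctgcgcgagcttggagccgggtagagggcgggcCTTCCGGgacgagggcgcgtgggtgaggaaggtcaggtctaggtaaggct
Counted with the start as 0, AAGATGG begins at 23 in MRPL50, at 8 in MRPL46 and at 23 in MRPS18B.

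In the small subunit the largest falls were in MRPS2 and MRPS18B. MRPS2, the homologue of bacterial S2, had 10.51 and 10.33 with JQ1, 10.83, 10.72 and 10.76 with RVX-208, and 10.87, 10.75 and 10.79 with DMSO (8159249, chromosome 9). MRPS18B, a member of a family of 3 that descends from bacterial S18, had 9.92 and 9.77 with JQ1, 10.17, 10.21 and 10.16 with RVX-208, and 10.29, 10.17 and 10.21 with DMSO (8179139, chromosome 6). In both genes the JQ1 arrays lay below all others, while RVX-208 overlapped DMSO. The JQ1 changes were −0.38 ± 0.07 for MRPS2 (adjusted p = 0.00512) and −0.38 ± 0.06 for MRPS18B (adjusted p = 0.00346).

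Next in size were 4 large-subunit proteins with bacterial homologues. MRPL15 (8146448, chromosome 8) read 9.20 and 9.33 with JQ1, 9.51, 9.52 and 9.59 with RVX-208, and 9.66, 9.65 and 9.57 with DMSO. MRPL35 (8043278, chromosome 2) read 9.91 and 9.99 with JQ1, 10.20, 10.25 and 10.28 with RVX-208, and 10.32, 10.26 and 10.26 with DMSO. In each the JQ1 arrays were lowest without overlap and the other groups overlapped. MRPL15 changed by −0.36 ± 0.06 (adjusted p = 0.00401) and MRPL35 by −0.33 ± 0.06 (adjusted p = 0.0036). MRPL27, whose bacterial relative reaches towards the peptidyl transferase centre, had 8.57 and 8.49 with JQ1, 8.74, 8.79 and 8.79 with RVX-208, and 8.91, 8.82 and 8.83 with DMSO (8016699, chromosome 17). Its 3 groups did not overlap, with JQ1 lowest and DMSO highest, and its JQ1 change was −0.33 ± 0.06 (adjusted p = 0.00375). MRPL3, which lies near the peptidyl transferase centre, had 10.46 and 10.56 with JQ1, 10.73, 10.61 and 10.61 with RVX-208, and 10.87, 10.83 and 10.83 with DMSO (8090678, chromosome 3). The order was again JQ1, RVX-208, DMSO with no overlap. MRPL3 changed by −0.33 ± 0.06 with JQ1 (adjusted p = 0.00512), and its RVX-208 value of −0.19 ± 0.05 missed the threshold (adjusted p = 0.0694).

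The other 6 genes called lower changed by between −0.32 and −0.19 and each lost its call without at least 1 array. MRPS5, a small-subunit protein with a bacterial homologue, changed by −0.32 ± 0.07 (adjusted p = 0.00864, and 0.0604 without JQ1 replicate 2). MRPL12, the stalk protein that in bacteria contacts translation factors, had 10.26 and 10.35 with JQ1, 10.61, 10.49 and 10.45 with RVX-208, and 10.61, 10.54 and 10.66 with DMSO (8010664). Its JQ1 arrays were lowest and its change was −0.30 ± 0.07 (adjusted p = 0.0143, and 0.0985 without JQ1 replicate 1). MRPL34 (−0.25), MRPL9 (−0.22), MRPL16 (−0.21) and MRPS15 (−0.19), all homologues of bacterial proteins, were called at adjusted p-values of 0.0269, 0.0329, 0.0229 and 0.0263. Each of these 4 missed the threshold without JQ1 replicate 2, at up to 0.189 for MRPL9. All but MRPL34 also missed it without JQ1 replicate 1, all 4 without DMSO replicate 2, and MRPL34, MRPL9 and MRPS15 without DMSO replicate 1. MRPL9 missed it without RVX-208 replicate 2 or 3 as well.

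MRPS33, a mitochondria-specific small-subunit protein, was the single member that rose with JQ1. It had 7.46 and 7.32 with JQ1, 7.24, 7.38 and 7.37 with RVX-208, and 6.94, 6.88 and 6.94 with DMSO (8143433, chromosome 7). All 5 treated arrays lay above the DMSO arrays, and the compounds overlapped. Its change was 0.47 ± 0.07 with JQ1 (adjusted p = 0.00172), a level 1.38-fold higher. MRPS33 is among the 5 dim members, below the median signal of all genes.

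**Figure D2:**
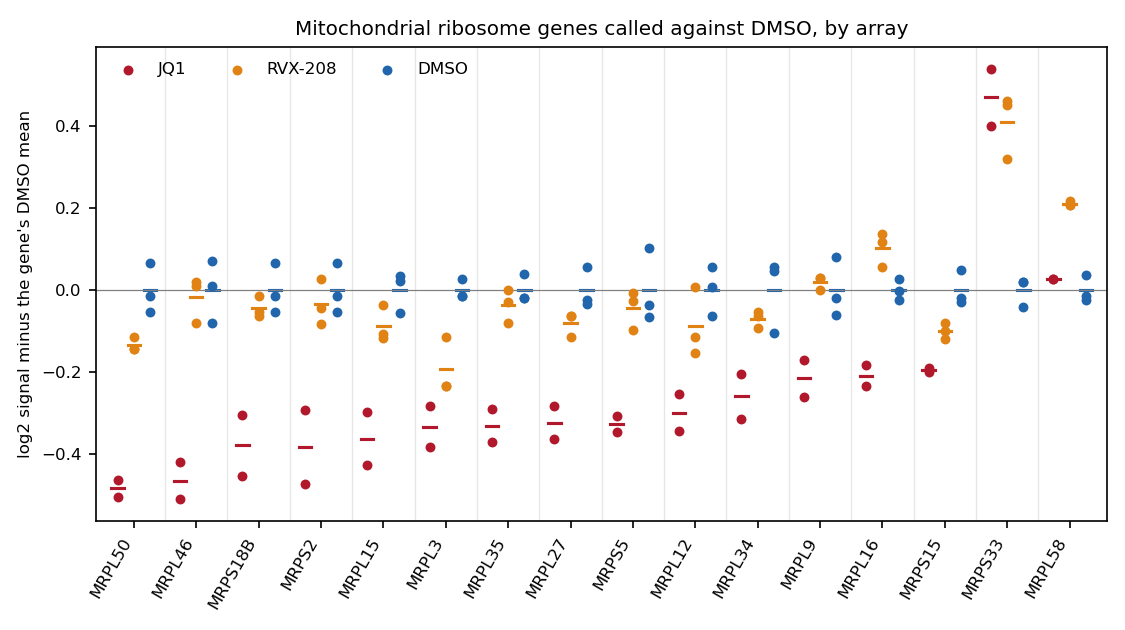
Log2 signal minus the mean of the gene's DMSO arrays, for the 16 members called with JQ1 or RVX-208 against DMSO. Each point is an array and each bar a group mean, with 2 JQ1, 3 RVX-208 and 3 DMSO arrays a gene. The JQ1 points of the 14 lower genes lie below every RVX-208 and DMSO point of the same gene, and MRPS33 has both compounds above DMSO.

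In the large subunit 10 of 49 genes fell and 0 rose, 8 of the 29 with a bacterial homologue and 2 of the 20 that are specific to mitochondria. In the small subunit 4 of 23 fell and 1 rose, with 3 lower among 13 bacterial homologues and 1 lower and 1 higher among 10 mitochondria-specific genes. Over all genes 12.0% were lower and 10.7% higher, and over the brighter genes 16.9% and 17.3%. With centring on housekeeping genes 32 large-subunit genes (65.3%) were lower, as were 13 small-subunit genes (56.5%), against 42.2% of all genes. The split by origin in the large subunit changed with the setting. With that centring 19 of the 29 bacterial homologues and 13 of the 20 mitochondria-specific genes were lower, and with cyclic loess 8 and 4. In JQ1 against RVX-208 the lower counts were 5 of 29 and 4 of 20. A difference between genes of these origins was not tested. MRPS18A and MRPS18B are counted as mitochondria-specific, although they resemble bacterial S18, because MRPS18C takes its place in the ribosome. Counts by subunit place MRPS30 and MRPS18A in the large subunit, where their proteins sit in spite of their names. Within the large subunit, MRPL27 and MRPL46 were the 2 called of 8 central protuberance genes and MRPL12 the 1 called of 5 stalk genes, and none of 7 genes at the peptide exit tunnel was called by limma, with 1 at an unadjusted p under 0.05.

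Several well-studied members did not pass. MRPS22, which in humans is mutated in a mitochondrial translation disorder, read between 7.41 and 7.45 on all 8 arrays, with a JQ1 change of 0.01 ± 0.05 (adjusted p = 0.929). MRPS7 gave 0.02 ± 0.05 (adjusted p = 0.794) and MRPL10, the stalk base, 0.04 ± 0.08 (adjusted p = 0.741). For these 3 genes the JQ1 sign turned negative with centring on housekeeping genes. MRPL11 at the stalk base gave −0.08, MRPL44 at the exit tunnel −0.09, MRPS16 −0.12, MRPS12 −0.13 and MRPS34 −0.14, all with an adjusted p over 0.05. MRPL45, which anchors the ribosome at the inner membrane, read 12.13 and 12.12 with JQ1, 12.28, 12.23 and 12.31 with RVX-208, and 12.36, 12.31 and 12.22 with DMSO. Its JQ1 arrays were lowest without overlap, and the change of −0.17 ± 0.06 missed the threshold (adjusted p = 0.0797).

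RVX-208 against DMSO asks the same of the compound that prefers the second bromodomain. With RVX-208, 2 of the 73 genes were higher and 0 lower by limma. That made 2.74% called, against 6.28% of all genes and 6.96% of the brighter genes. An unadjusted p under 0.05 was reached by 14 members, beside 4987 of the 17845 genes and 2573 of the 8923 brighter genes. Among all genes 3.06% were higher and 3.22% lower, and among the brighter genes 4.71% higher and 2.25% lower. The split changed with the scaling, to 2 higher and 1 lower with cyclic loess and 1 higher and 4 lower with centring on housekeeping genes. With that centring 5.48% of the members were lower, against 20.4% of all genes and 14.2% of the brighter genes. The members' median log2 change was 0.028 (all genes −0.023, brighter genes 0.028). It was −0.007 with cyclic loess (all genes −0.002, brighter genes 0.003) and −0.079 with centring on housekeeping genes (all genes −0.129, brighter genes −0.079). RVX-208 arrays lay wholly above DMSO for 21 members (28.8%, against 15.6% of all genes and 25.6% of the brighter ones) and wholly below for 6 (8.22%, against 18.5% and 14.5%).

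MRPS33 was one of the 2, at 0.41 ± 0.06 (adjusted p = 0.0176), on the values given above. It missed the threshold without RVX-208 replicate 2 or 3 or without DMSO replicate 3, at up to 0.0772. The other was MRPL58, a peptidyl-tRNA hydrolase that became part of the large subunit and frees stalled ribosomes. MRPL58 (8009727, chromosome 17) read 10.17 on both arrays with JQ1, 10.36, 10.35 and 10.35 with RVX-208, and 10.12, 10.13 and 10.18 with DMSO. The RVX-208 arrays were highest and did not overlap with the others. MRPL58 changed by 0.22 ± 0.04 (adjusted p = 0.0321) with RVX-208 and by 0.03 ± 0.05 with JQ1 (adjusted p = 0.704). Its call was lost without any 1 of 6 arrays, among them each RVX-208 and each DMSO array, at up to 0.108, and with cyclic loess or housekeeping centring.

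Of the genes named above that fell with JQ1, RVX-208 gave −0.13 ± 0.05 for MRPL50 (adjusted p = 0.138), −0.01 for MRPL46, −0.03 for MRPS2, −0.04 for MRPS18B, −0.09 for MRPL15, −0.04 for MRPL35, −0.08 for MRPL27 and −0.09 for MRPL12, none past the threshold. The interval for MRPL46 ran from −0.15 to 0.12. Both compounds were set against the same DMSO arrays. MRPL10 at 0.20, MRPL11 at −0.10, MRPS12 at 0.06, MRPS16 at −0.03, MRPL45 at −0.02, MRPL44 at −0.01, MRPS34 and MRPS7 at 0.02 and MRPS22 at 0.01 did not pass either, and under another scaling the sign turned for MRPS12, MRPS34, MRPS7 and MRPS22.

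JQ1 against RVX-208, the third comparison, sets the compounds side by side at their different doses. With JQ1, 13 members were lower and 0 higher than with RVX-208 (17.8% called, against 10.9% of all genes and 17.7% of the brighter genes). Lower calls made up 17.8% of the members, 6.78% of all genes and 11.5% of the brighter genes, and higher calls 4.16% of all genes and 6.14% of the brighter genes. At an unadjusted p under 0.05 there were 33 members, beside 4416 of the 17845 genes and 3131 of the 8923 brighter genes. The JQ1 arrays lay wholly below the RVX-208 arrays for 41 members (56.2%, against 22.4% and 33.3%) and wholly above for 1 (1.37%, against 20.4% of all genes). The median difference was −0.130 (all genes 0.003, brighter genes −0.019), and it was −0.190 with housekeeping centring. Leaving out JQ1 replicate 2 gave a count of 3 and leaving out JQ1 replicate 1 a count of 5.

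MRPL46 had the largest of these differences, −0.45 ± 0.07 (adjusted p = 0.00431). MRPL50 (−0.35, adjusted p = 0.00653), MRPS2 (−0.35, 0.0157), MRPS18B (−0.34, 0.0128) and MRPL35 (−0.29, 0.0136) were also lower, on the values given above. MRPL16, a large-subunit protein with a bacterial homologue, read 9.36 and 9.31 with JQ1, 9.66, 9.60 and 9.68 with RVX-208, and 9.52, 9.57 and 9.54 with DMSO (7948424). Here DMSO lay between the compounds with no overlap, and JQ1 was lower than RVX-208 by −0.31 ± 0.05 (adjusted p = 0.00806). MRPS31, a mitochondria-specific small-subunit protein, had 7.30 and 7.36 with JQ1, 7.62, 7.65 and 7.73 with RVX-208, and 7.62, 7.49 and 7.45 with DMSO. JQ1 was lowest and RVX-208 overlapped DMSO. The difference for MRPS31 was −0.33 ± 0.07 (adjusted p = 0.0168), with the limit of its near-identical pseudogene. MRPS5 (−0.28), MRPL15 (−0.27), MRPL27 (−0.25), MRPL9 (−0.24), MRPL58 (−0.19) and MRPS18A (−0.18) were the remaining genes called lower, at adjusted p-values between 0.0267 and 0.0486. Without JQ1 replicate 2 the calls of MRPL50, MRPL16, MRPS18B and MRPS2 were lost (adjusted p = 0.05, 0.061, 0.0908 and 0.104), and without JQ1 replicate 1 that of MRPL35 (0.0972). MRPL46 kept its call without any 1 array, and the other 7 each lost theirs without 3 or more arrays.

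MRPS33 gave no detectable difference between the compounds, 0.06 ± 0.07 with an interval from −0.10 to 0.21 (adjusted p = 0.663). For MRPL3 the difference was −0.14 (−0.28 to −0.00, adjusted p = 0.201) and for MRPL12 −0.21 (−0.37 to −0.05, adjusted p = 0.0915). MRPS12 (−0.18), MRPL10 and MRPS34 (both −0.16), MRPL45 (−0.15), MRPS16 (−0.09), MRPL44 (−0.08), MRPL11 (0.02), MRPS7 (0.01) and MRPS22 (−0.00) did not pass. In all, 55 of the 73 genes were called in none of the 3 comparisons, and the matching share of all genes is not given here.

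Assembly factors modify the ribosomal RNA and bring it together with the proteins. Of 24 tested, 10 were lower and 4 higher with JQ1, with a median of −0.140. That made 58.3% called, set against 22.8% of all genes and 34.2% of the brighter genes. With centring on housekeeping genes 13 were lower and 1 higher, a setting in which 42.2% of all genes were lower. FASTKD2, an RNA-binding protein of the mitochondrial RNA granule, had 8.57 and 8.76 with JQ1, 9.21, 9.25 and 9.23 with RVX-208, and 9.17, 9.21 and 9.16 with DMSO. Only JQ1 stood apart, at −0.51 ± 0.07 (adjusted p = 8.794e-04). MRM1, which methylates the large ribosomal RNA, changed by −0.48 ± 0.06. MPV17L2, an inner-membrane protein that takes part in assembly, had 10.93 and 10.92 with JQ1, 10.77, 10.77 and 10.73 with RVX-208, and 10.43, 10.52 and 10.38 with DMSO. Its groups did not overlap, and it changed by 0.48 ± 0.06 with JQ1 (adjusted p = 6.840e-04) and by 0.31 ± 0.05 with RVX-208 (adjusted p = 0.0214). MTERF3, which binds mitochondrial DNA and affects ribosome assembly, changed by 0.33 ± 0.06 with JQ1. GADD45GIP1, a large-subunit protein without an MRP name, was 1 of 4 such genes called, at −0.20 ± 0.06 (adjusted p = 0.0357).

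Among 16 translation factors 4 were lower and 3 higher with JQ1, with TACO1, an activator of cytochrome oxidase subunit translation, at −0.56 ± 0.06 and the release factor relative MTRF1 at −0.42 ± 0.06. MTFMT, which formylates the initiator methionine, was at 0.41 ± 0.06 and the release factor MTRF1L at 0.39 ± 0.06. Of 19 genes that charge mitochondrial tRNAs, 5 were lower, led by QRSL1 (−0.59) and the tyrosine enzyme YARS2 (−0.48), and 2 higher, MARS2 (0.30) and FARS2 (0.22). For mitochondrial DNA transcription and replication the count was 3 lower and 3 higher of 9, with the nuclease MGME1 at −0.56, the transcription factor TFB2M at −0.44, the polymerase POLG at 0.52 and its partner POLG2 at 0.25. Import genes gave 1 lower, TIMM21 (−0.54), and 1 higher, DNAJC19 (0.30), of 26. With centring on housekeeping genes the lower and higher counts were 7 and 3 for translation factors, 11 and 0 for tRNA charging, 4 and 1 for mitochondrial DNA and 14 and 0 for import. Over all genes 12.0% were lower and 10.7% higher with JQ1, and with that centring 42.2% lower and 5.01% higher. Over the brighter genes these shares were 16.9% and 17.3%, and with that centring 43.1% and 7.69%.

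RVX-208 called 1 higher gene in each of these lists and 0 lower, namely MPV17L2, MTFMT (0.24), FARS2 (0.28), POLG2 (0.28) and DNAJC19 (0.29). With centring on housekeeping genes MPV17L2 stayed the 1 higher gene, 2 assembly factors and 2 tRNA-charging genes were lower, and the other 3 lists had no call. Among all genes RVX-208 made 3.06% higher and 3.22% lower, and with that centring 1.51% higher and 20.4% lower. Among the brighter genes these shares were 4.71% and 2.25%, and with that centring 2.14% and 14.2%. JQ1 was lower than RVX-208 for 8 assembly factors (33.3%), 3 translation factors (18.8%) and 6 tRNA-charging genes (31.6%). It was also lower for 3 genes of mitochondrial DNA (33.3%) and 2 import genes (7.69%), against 6.78% of all genes and 11.5% of the brighter genes. JQ1 was higher for MTRF1L (0.26, not called with that centring) and MARS2 (0.38), and for 4.16% of all genes and 6.14% of the brighter genes. The lowest of these differences were those of FASTKD2 (−0.56), TIMM21 (−0.54), MGME1 (−0.51), TACO1 (−0.49) and MTRF1 (−0.48).

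Among 11 regulators of mitochondrial gene expression, 4 were lower and 1 higher with JQ1, against 12.0% lower and 10.7% higher over all genes. Over the brighter genes 16.9% were lower and 17.3% higher. With centring on housekeeping genes 9 were lower and 1 higher, a setting that made 42.2% of all genes lower and 5.01% higher. PPARGC1A, a coactivator that induces mitochondrial genes, had 7.71 and 7.59 with JQ1, 8.49, 8.30 and 8.42 with RVX-208, and 8.63, 8.67 and 8.64 with DMSO. Its relative PPRC1 averaged 8.03 ± 0.05 with JQ1 (SD, n = 2), 8.64 ± 0.07 with RVX-208 and 8.84 ± 0.06 with DMSO (SD, n = 3 each). PPARGC1A followed the order JQ1, RVX-208, DMSO without overlap, and with JQ1 it stood at 0.501 of its DMSO level (log2 interval −1.16 to −0.84, limma adjusted p = 5.728e-05). PPRC1 changed by −0.80 ± 0.06 (limma adjusted p = 1.028e-04). The growth regulator MYC changed by −0.67 ± 0.06 and GABPB1, a subunit of an ETS-family factor, by −0.30 ± 0.06. NRF1, a transcription factor for many nuclear genes of mitochondrial proteins, changed by 0.36 ± 0.05 (adjusted p = 0.00205). With RVX-208 only MYC was called in this list, at −0.22 ± 0.05 (adjusted p = 0.0482), where 3.22% of all genes were lower. The number lower with RVX-208 was 3 with cyclic loess and 6 with housekeeping centring, which made 20.4% of all genes lower, and whether these regulators bear on the ribosome genes was not tested.

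Beside these, 2 families of similar size were counted. Of 61 cytosolic ribosomal protein genes 6 were higher and 1 lower with JQ1, with a median of 0.058, but 2 higher and 8 lower with centring on housekeeping genes. Of 77 subunits of oxidative phosphorylation 16 were higher and 0 lower, with a median of 0.096, but 1 higher and 10 lower with that centring. Over all genes 10.7% were higher and 12.0% lower, and with that centring 5.01% and 42.2%. With that centring the lower counts in both families lie below the share of all genes. Both families are bright, and 17.3% of the brighter genes were higher and 16.9% lower with JQ1. Higher calls made up 9.84% of the cytosolic ribosomal genes and 20.8% of the oxidative phosphorylation subunits. The mitochondrial ribosome genes gave 2 higher and 16 lower with cyclic loess and 1 higher and 45 lower with that centring, and the difference between the families was not tested.

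**Figure D3:**
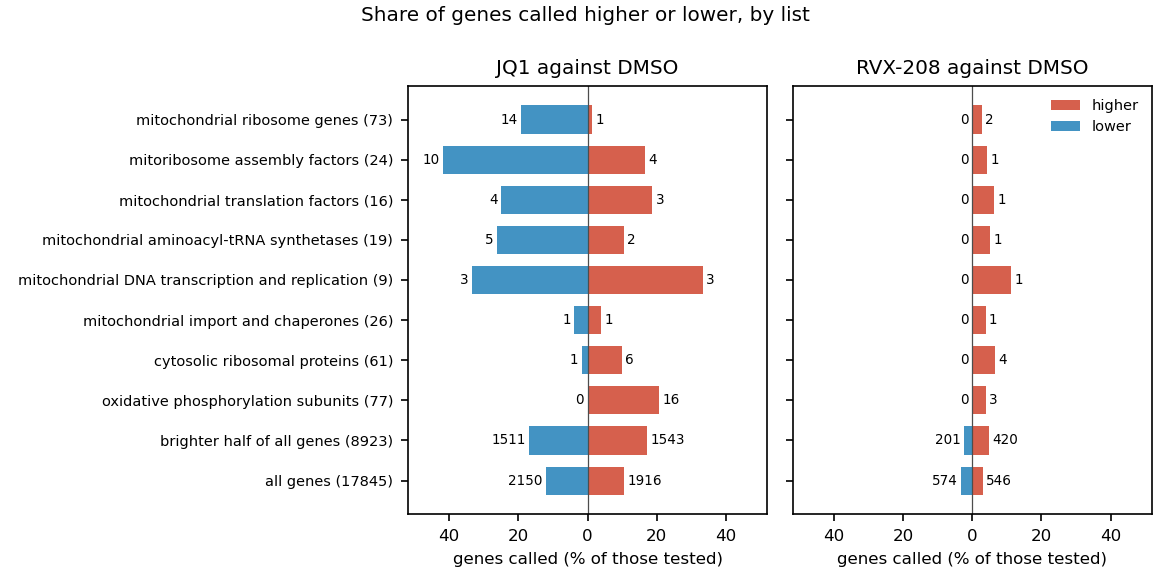
Share of the tested genes of each list that were called lower (left of 0) or higher (right of 0), JQ1 against DMSO on the left and RVX-208 against DMSO on the right. Numbers at the bars count genes and numbers in brackets give those tested. With JQ1 the mitochondrial ribosome genes show 14 lower and 1 higher and the oxidative phosphorylation subunits 0 lower and 16 higher. With centring on housekeeping genes the subunits count 10 lower and 1 higher of 77, a setting in which 42.2% of all genes are lower.

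RefSeq promoter windows were available for 65 of the 73 genes. MRPL10, MRPL13, MRPL15, MRPL2, MRPL21, MRPL23, MRPL35 and MRPS31P5 had no entry. Each motif was searched on both strands. The ETS letters CCGGAAG lay in 43.1% of the members, against 16.8% of tested genes and 23.7% of the brighter ones with a window, and 12.2% of all genes with a window. AAGATGG, for YY1, lay in 32.3% of the members, against 8.09% of tested, 10.5% of brighter and 7.11% of all genes. CACGTG, the E-box, lay in 13.8%, against 11.0%, 13.5% and 8.77%, and the NRF1 letters in 13.8%, against 10.0%, 14.5% and 6.98%.

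Of the 12 lower genes with a window, MRPL3, MRPL16 and MRPL27 held the ETS letters. MRPL46, MRPL50 and MRPS18B held AAGATGG, MRPS2 the E-box and MRPL34 the NRF1 letters. Among the other 53 members with a window, 25 held the ETS letters, 18 AAGATGG, and 8 each the E-box and the NRF1 letters. Matches of different motifs overlapped in 0 members, and a match describes letters, not binding.

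**Figure D4:**
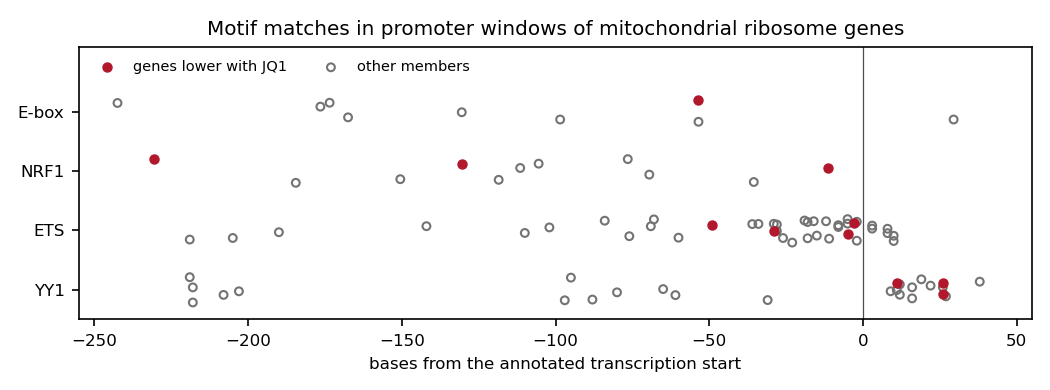
Position of each motif match in the promoter windows of 65 mitochondrial ribosome genes, in bases from the annotated start at 0. Rows are the E-box, NRF1, ETS and YY1 letters, with filled points for genes lower with JQ1 and open points for other members. Matches occur in 49 of the 65 genes, among them 8 of those lower with JQ1, and a gene can have several points. ETS matches gather before the start and many YY1 matches lie between the start and 50 bases after it.

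Some members share a start region with a gene on the opposite strand, within 1000 bases upstream. Of 18 such pairs with both genes tested, each counted once, MRPL46 is the partner of another member, MRPS11, with starts 320 bases apart. MRPS11 read 11.31 and 11.20 with JQ1, 11.28, 11.29 and 11.28 with RVX-208, and 11.25, 11.26 and 11.24 with DMSO (7985757), so the JQ1 arrays spanned both other groups. Its JQ1 change was 0.00 ± 0.05 (adjusted p = 0.973) beside −0.47 for MRPL46. MRPS18B lies 597 bases from PPP1R10, a phosphatase regulator, which had 9.56 and 9.51 with JQ1, 9.46, 9.53 and 9.52 with RVX-208, and 9.19, 9.32 and 9.36 with DMSO. PPP1R10 was higher with JQ1 by 0.25 ± 0.06 (adjusted p = 0.023) beside −0.38 for MRPS18B.

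Of the 5 lower members with a tested partner, the partner was higher for 1 and not called for 4. ZNF189 beside MRPL50 gave −0.18 ± 0.08 (adjusted p = 0.159), PIERCE1 beside MRPS2 −0.09 and EME1 beside MRPL27 −0.08. Of the other 13 pairs the partner was higher in 2, lower in 2 and not called in 9. Over all 18 pairs that made 3 higher and 2 lower, where 10.7% of all genes were higher and 12.0% lower with JQ1. HELQ, a DNA helicase gene 175 bases from MRPS18C, was higher by 0.88 ± 0.09 (adjusted p = 2.449e-04), whereas MRPS18C gave 0.20 (adjusted p = 0.114). Differences between a member and its partner were not tested.

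Of 77 protein-coding MRPL and MRPS symbols in RefSeq, 72 were tested, and MRPL20 and MRPS6 are not analysed here. MRPL51, MRPS24 and MRPS28 occur only on probe sets shared with another gene. Those gave a JQ1 change of 0.01 for the set shared by MRPL51 and SPTLC1, 0.03 for MRPS24 and its readthrough gene, and 0.20 for MRPS28 and TPD52 (adjusted p = 0.0983).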

How the data were processed

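Arrays of 8 samples were used. The deposited series table holds log2 values per probe set, made by the authors with RMA, per the submitters' processing notes, which also name R 2.15.3 and limma 3.14.4. A second deposited table holds the authors' log2 fold changes with an F score, its p-value and the adjusted p-value. It served only as a check: 19815 (JQ1) and 19816 (RVX-208) of 19816 fold changes matched differences of group means within 1e-04. Of these probe sets 17859 named 1 gene, 997 several and 960 none, and the last 2 kinds were left out. For 14 genes with several probe sets the brightest was used, leaving 17845.

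Fits used limma 3.58.1 in R 4.3.3 (lmFit with a mean per group over all 8 arrays, then eBayes, 8.55 degrees of freedom, two-sided), and tables and plots Python 3.11.15, pandas 2.3.3 and matplotlib 3.10.9. The p-values were adjusted by Benjamini-Hochberg across all 17845 genes, and an adjusted p under 0.05 made a call. Errors are SE and intervals 95%. Intensities on arrays carry no counts, so the number of arrays sets the precision. The steps were tested on simulated data whose planted changes were larger than that of any member, so recovery of changes of the members' size was not tested.

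Members, lists and tests were chosen with earlier results of these data known. Named members are the up to 8 largest called changes in each direction per comparison whose arrays do not overlap, 11 genes named whatever their values (MRPL3, MRPL10, MRPL11, MRPL12, MRPL44, MRPL45, MRPS7, MRPS12, MRPS16, MRPS22, MRPS34), members called with RVX-208, up to 2 extreme called genes each way of other lists, and HEXIM1, SERPINI1 and MYC. SERPINI1 changed by 0.93 ± 0.16 with JQ1 (adjusted p = 0.00429) and by 0.38 with RVX-208 (adjusted p = 0.14). Other genes, among them the start-region partners, and the brighter-gene background were picked after values were seen. The 17 alternatives were 9 of scaling, filtering, probe set choice and fit and 8 that each left out an array.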

Additional observations from a re-analysis of the deposited data

How the results depend on the processing

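With 2 JQ1 arrays and changes under 1.5-fold, single arrays decide some calls, and signals carry no detection calls. MRPL3, MRPL15, MRPL27, MRPL35, MRPL46, MRPL50, MRPS2, MRPS18B and MRPS33 kept their JQ1 call in all 17 alternatives, as MRPL46 did between the compounds. Causes of the changes below were not tested.

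Cyclic loess gave 2 higher with JQ1, 1 lower with RVX-208 and medians of −0.007 for RVX-208 against DMSO and, between compounds, −0.101. Centring on 9 housekeeping genes gave 45 lower with JQ1, 1 higher and 4 lower with RVX-208, and medians of −0.226, −0.079 and −0.190 in the 3 comparisons; all genes moved with it, to −0.208, −0.129 and −0.057. It turned the JQ1 medians of oxidative phosphorylation subunits and cytosolic ribosomal proteins to −0.071 and −0.109. All 9 housekeeping genes had a positive change with JQ1 (median 0.114) and with RVX-208 (median 0.104), so centring on them lowers every change against DMSO. Of those 9 genes B2M and GUSB were called higher with JQ1. Leaving out the dimmest 25% of genes gave 1 lower with RVX-208, array weights 1, and eBayes with trend and robust 8 higher and 2 lower with RVX-208 and 27 lower in JQ1 against RVX-208. The shares of all genes called in these settings, and with the replicate block that follows, are not given here. These counts therefore cannot be set against a background. The replicate block gave 0 higher with RVX-208 and 5 lower in JQ1 against RVX-208, and 1 higher and 11 lower with JQ1. By their labels, samples of the same number share no more than that number. Their deviations from the group means correlated between −0.127 and 0.079. Deviations within groups of 2 or 3 arrays sum to 0, so these values cannot tell whether such samples shared a batch, which was not tested.

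Leaving out each array in turn, JQ1 counts ranged from 1 to 2 higher and 9 to 16 lower, with a median from −0.059 to −0.036. RVX-208 counts ranged from 0 to 2 higher, with 0 lower, and a median from 0.021 to 0.037. JQ1 against RVX-208 ranged from 3 to 13 lower, with 0 higher, and a median from −0.135 to −0.103. JQ1 lower calls numbered 9 without JQ1 replicate 2 and 10 without JQ1 replicate 1. RVX-208 higher calls numbered 0 without RVX-208 replicate 2 or 3 or DMSO replicate 3 and 1 without any other RVX-208 or DMSO array. JQ1 against RVX-208 gave 7, 7 and 6 lower without RVX-208 replicate 1, 2 and 3, 5 without JQ1 replicate 1 and 3 without JQ1 replicate 2.

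Among the members named by rule, the signs that turned were of values near 0 that had not passed. With cyclic loess these were RVX-208 against DMSO for MRPS34 (−0.019) and MRPS7 (−0.021) and JQ1 against RVX-208 for MRPS22 (0.004). With housekeeping centring they were JQ1 against DMSO for MRPL10 (−0.125), MRPS22 (−0.159) and MRPS7 (−0.143), RVX-208 against DMSO for MRPS12 (−0.052), MRPS22 (−0.098), MRPS34 (−0.088) and MRPS7 (−0.090), and JQ1 against RVX-208 for MRPL11 (−0.041) and MRPS7 (−0.054). Array weights turned MRPL44 with RVX-208 (0.001) and MRPS22 between compounds (0.003), as the replicate block did for MRPS22 (0.002). Without single arrays, JQ1 against DMSO ranged from −0.040 to 0.123 for MRPL10, −2.6e-04 to 0.017 for MRPS22 and −0.003 to 0.054 for MRPS7. RVX-208 against DMSO ranged from −0.034 to 0.036 for MRPL44, −0.059 to 0.012 for MRPL45, −0.003 to 0.020 for MRPS22, −0.010 to 0.049 for MRPS34 and −0.010 to 0.047 for MRPS7. JQ1 against RVX-208 ranged from −0.017 to 0.055 for MRPL11, −0.012 to 0.011 for MRPS22 and −0.012 to 0.025 for MRPS7.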
